A study of Mus musculus with 4 samples.

Results

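The 10 genes described here encode the histone demethylase LSD1 (Kdm1a), its CoREST scaffolds (Rcor1, Rcor2 and Rcor3), the deacetylases Hdac1, Hdac2 and Hdac3, and 3 partner proteins (Hmg20b, Phf21a and Zmym2). They were taken by gene symbol from the 46406 rows of the deposited table, and all 10 were present, passed the filter on low values and had 20 reads or more. The table comes from ATAC-seq of J1 mouse embryonic stem cells, in which the transposase Tn5 cuts and tags open DNA. The 2 control libraries, labelled wild type, were set against 2 libraries of cells made to overexpress Zscan4, a zinc finger protein of the 2-cell embryo (Zscan4 OE). All were grown without feeder cells and carried the same passage label. The sources used here do not give which Zscan4 gene was expressed, from which promoter and in how many clones. Nothing in the labels says that replicates of a group were separate cultures, so p-values measure only how these libraries spread, and that spread may be technical.

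LSD1 removes methyl groups from lysine 4 of histone H3, and in the CoREST complex it works together with a class I deacetylase that removes acetyl groups from the same nucleosomes. CoREST proteins bridge the enzymes and let LSD1 act on nucleosomes. The complex silences lineage and early-embryo genes in stem cells. The title of the series names a co-repressor complex as a target of Zscan4 at the protein level. The measurements here concern another layer, the openness of the DNA of the genes that encode such proteins.

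A value counts reads over a gene's feature, taken to be its exons, divided by how long the feature is and by the total of the library (RPKM). The deposited values were divided by library totals that rotate from row to row, so whole reads were recovered and rescaled to each library's own total. RPKM below means this rescaled value. Library totals were 1061428 reads for control 1, 2903602 for control 2, 3605774 for Zscan4 OE 1 and 4899494 for Zscan4 OE 2, of which 9.38% to 12.8% lay in features. Control 1 was the shallowest library, and replicate 1 of each group had the higher share of reads in features (12.4% and 12.8%, against 9.38% and 9.93%). These shares rest on which total is placed with which library, a choice made to keep the shares alike. The labelled cell type could be compared with its markers only through exon accessibility. The 15 pluripotency markers averaged 2.24, 1.38, 2.99 and 1.73 RPKM in the 4 libraries, and the 14 fibroblast markers averaged 0.821, 0.896, 0.892 and 0.744. Among the pluripotency markers, 1 had no read in control 1 (Dppa5a), and the primitive endoderm markers averaged 0.906 to 1.23 RPKM. Protein-coding genes with 20 reads or more had medians of 1.07, 0.853, 1.16 and 0.917 RPKM. Markers of a list were uneven, as 3 picked after their values were seen show. Klf2 was at 7.14, 3.54, 5.11 and 2.54 RPKM, and Sox2 at 0.916, 0.837, 1.21 and 0.595. The endoderm marker Sox17, at 3.75, 3.10, 2.09 and 1.58 RPKM, was above Sox2 in each library.

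Promoter windows from RefSeq (GRCm38.p6, the assembly behind mm10) were found for 8 of the 10 genes, with none for Hdac1 and Hdac3. The 4 printed here are the 250 bases before a start of Kdm1a, Hmg20b, Rcor1 and Zmym2. Kdm1a is the enzyme itself and Hmg20b the most accessible gene of the set. In Rcor1 and Zmym2 the 2 groups of libraries did not overlap with the totals as placed here. Where the table lists several starts of a gene, the farthest upstream of those was taken, but the annotated gene can reach further. The Rcor1 and Rcor2 windows lie outside the gene's span, 4 overlap it in part (Kdm1a by 64 bases, Zmym2 by 74, Rcor3 by 34 and Hdac2 by 247), and those of Hmg20b and Phf21a lie within it. Which bases of a window were counted is not known, and no value was measured for the windows as such. They run 5′ to 3′ in the direction of the gene, and capitals mark CCAAT, the box bound by NF-Y, and GGGCGG, the GC box bound by Sp1 factors, on either strand.
Kdm1a (chr4:136602724-136602973, minus strand): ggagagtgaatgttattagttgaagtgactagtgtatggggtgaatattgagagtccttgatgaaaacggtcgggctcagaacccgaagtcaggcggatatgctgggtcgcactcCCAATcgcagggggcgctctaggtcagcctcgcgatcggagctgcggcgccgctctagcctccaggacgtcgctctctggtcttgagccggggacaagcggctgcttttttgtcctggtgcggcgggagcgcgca
Rcor1 (chr12:111039117-111039366, plus strand): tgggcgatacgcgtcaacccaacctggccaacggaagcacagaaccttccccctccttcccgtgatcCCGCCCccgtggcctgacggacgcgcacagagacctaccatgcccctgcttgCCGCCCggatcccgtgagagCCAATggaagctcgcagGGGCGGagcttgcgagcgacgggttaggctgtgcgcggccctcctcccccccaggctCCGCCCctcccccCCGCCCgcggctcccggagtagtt
Hmg20b (chr10:81350458-81350707, minus strand): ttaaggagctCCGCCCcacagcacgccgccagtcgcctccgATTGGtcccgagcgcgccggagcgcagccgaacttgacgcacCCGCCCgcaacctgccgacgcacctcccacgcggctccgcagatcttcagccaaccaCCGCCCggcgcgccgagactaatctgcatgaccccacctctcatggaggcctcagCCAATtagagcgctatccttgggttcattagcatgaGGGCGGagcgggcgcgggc
Zmym2 (chr14:56886353-56886602, plus strand): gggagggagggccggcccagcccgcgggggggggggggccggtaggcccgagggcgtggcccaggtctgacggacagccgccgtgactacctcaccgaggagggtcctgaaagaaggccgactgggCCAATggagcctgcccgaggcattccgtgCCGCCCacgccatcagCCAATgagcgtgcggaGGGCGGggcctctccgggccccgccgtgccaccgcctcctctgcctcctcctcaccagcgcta
Every one of the 8 windows was rich in CpG dinucleotides. They held 17 (Rcor2) to 39 (Rcor3) CpGs, against a median of 10 over 21262 windows of protein-coding genes and 6 over all 32851 windows. Their GC content ran from 59.2% in Kdm1a to 82.8% in Rcor3. The GC box was found in 7 of the 8 windows, Kdm1a being the exception, and in 42.6% of coding windows and 32.7% of all windows. CCAAT was found in 4 of 8 (Kdm1a, Rcor1, Hmg20b and Zmym2), and in 35.4% of coding windows and 33.8% of all. Neither CCGGAAG, a site of ETS factors, nor TGCACAC, the core of a motif reported for Zscan4 proteins, occurred in any of the 8. They occurred in 8.98% and 3.23% of coding windows and in 6.91% and 3.67% of all windows. All were searched on both strands, and no motif contains another.

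**Figure D1:**
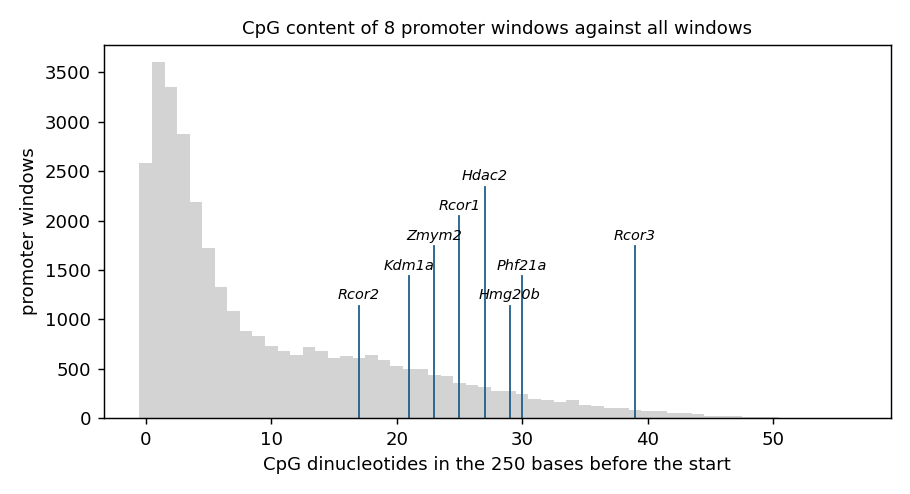
The x axis gives the number of CpG dinucleotides in the 250 bases before a start and the y axis the number of promoter windows, as grey bars over all 32851 windows. Blue lines mark the 8 genes with a window, which lie between 17 (Rcor2) and 39 (Rcor3), all above the median of 6.

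The genes differed widely in accessibility per kilobase. Hmg20b, an HMG-box protein of the complex, was far above the others at a mean of 4.40 ± 1.81 RPKM (SD over the 4 libraries, n = 4). It was followed by Rcor2 at 1.88 ± 0.355, Hdac1 at 1.59 ± 0.481, Kdm1a at 1.13 ± 0.213 and Rcor3 at 0.973 ± 0.267. The remaining 5 were close together, from 0.795 ± 0.419 for Hdac2 to 0.713 ± 0.302 for Rcor1. Hmg20b ranked first and Rcor2 second in each of the 4 libraries. The step from Hmg20b to Rcor2 was 2.52 RPKM and exceeded both SDs. That from Rcor2 to Hdac1, 0.287 RPKM, was smaller than either SD although Rcor2 was above Hdac1 in 4 of 4 libraries. Every later step was smaller than the SD of at least 1 of its neighbours, so the order of neighbours from Rcor2 downwards is not resolved beyond the spread. Genes further apart could differ more. The lowest value of Rcor2, 1.43 RPKM in control 2, was above the highest of Kdm1a, 1.29 RPKM in Zscan4 OE 1.

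Set against the 15224 protein-coding genes with 20 reads or more, Hmg20b lay at the 97.6th to 99.3rd percentile in all libraries and Rcor2 at the 82.4th to 89.7th. The set as a whole was ordinary. Its median was 1.19, 0.848, 1.19 and 0.962 RPKM in the 4 libraries, beside 1.07, 0.853, 1.16 and 0.917 for the coding genes. Between 4 and 6 of the 10 genes were above the coding median in a library. Hdac2 moved from percentile 13.1 in control 1 to 60.8 in Zscan4 OE 1 and back to 14.5 in Zscan4 OE 2, on 2, 22 and 12 reads.

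**Figure D2:**
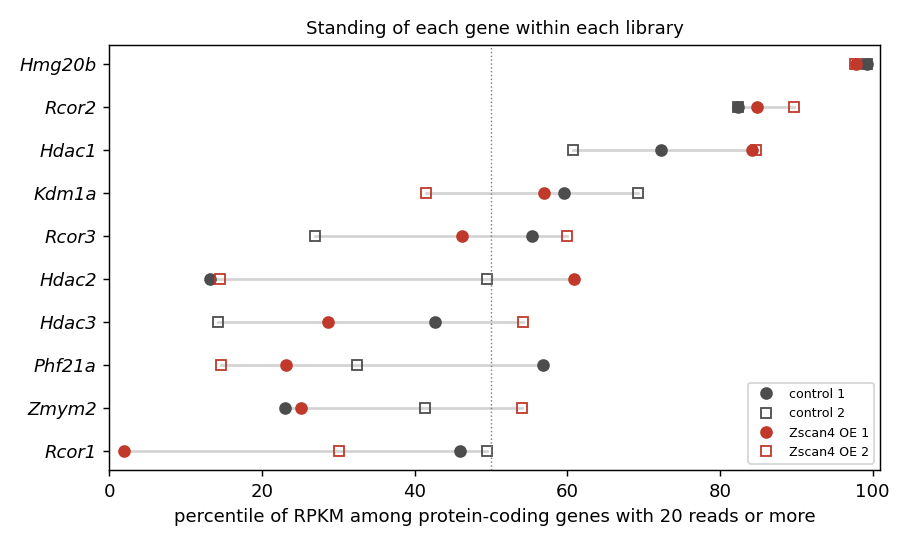
Each row is a gene, ordered by mean RPKM, and the x axis is its percentile of RPKM among the 15224 protein-coding genes with 20 reads or more. Grey symbols are the 2 control libraries and red symbols the 2 Zscan4 OE libraries, circles for replicate 1 and squares for replicate 2; Hmg20b stays above the 97th percentile throughout while Hdac2 spans 13.1 to 60.8.

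Gene shape went along with level within the set. The recovered features ran from 2842 bp in Rcor1 to 13622 bp in Rcor3, and covered 3.71% of the annotated span in Rcor1 and 64.3% in Hmg20b. The smallest length that gave whole reads was taken, so a true feature may be longer. Across the 10 genes, which share the same 4 libraries, Spearman's rho between mean RPKM and the share of the span covered was 0.73, and that with feature length was −0.24. Over all 15224 coding genes the same rho was 0.11 for the share of the span and −0.49 for length. As a comparison chosen after its level was seen, Hmg20b was set beside the 1995 coding genes that span at most 10000 bp and have a feature over at least 50% of it. It lay at the 98.7th and 98.8th percentile of these in the controls and the 95.4th and 95.8th in Zscan4 OE.

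None of the 10 genes passed the test for a difference between Zscan4 OE and control, and no row of the table did. The test was limma on log2(RPKM + 0.1), a scale on which changes of low values come out too small, with Benjamini-Hochberg adjustment over 42989 rows. It called 0 rows (0% of those tested) at an adjusted p under 0.05. Among rows with 20 reads or more the same test called 4 higher and 1 lower, with none of the 10 genes among them. At the filter that kept 42989 rows it called no gene in simulated data with known changes either. The absence of calls therefore does not show that accessibility was alike. The adjusted p of the 10 genes ran from 0.869 to 0.971. At an unadjusted p under 0.05 there were 0 of the 10, against 5.09% of all rows higher and 1.33% lower in Zscan4 OE. With the totals as placed here, the groups overlapped in 8 of the 10 genes. They did not overlap in Zmym2, higher in Zscan4 OE, and in Rcor1, lower, against 19.6% and 10.1% of all tested rows. At 1 gene of 10 each, these shares are at or below the background. Of the 10 log2 differences 6 were positive and 4 negative, with a median of 0.25. The median over all tested rows was 0.28, and 62% of those rows were positive. Relative to that median 5 genes lay above and 5 below, and with each library centred on its own median 5 were positive and 5 negative. All 10 genes had 20 reads or more. Over the rows with that many reads the median was 0.14, below that of the 10, and 60.3% were positive. With quantile normalization the median of the 10 was −0.08 and that of all rows −0.04.

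**Figure D3:**
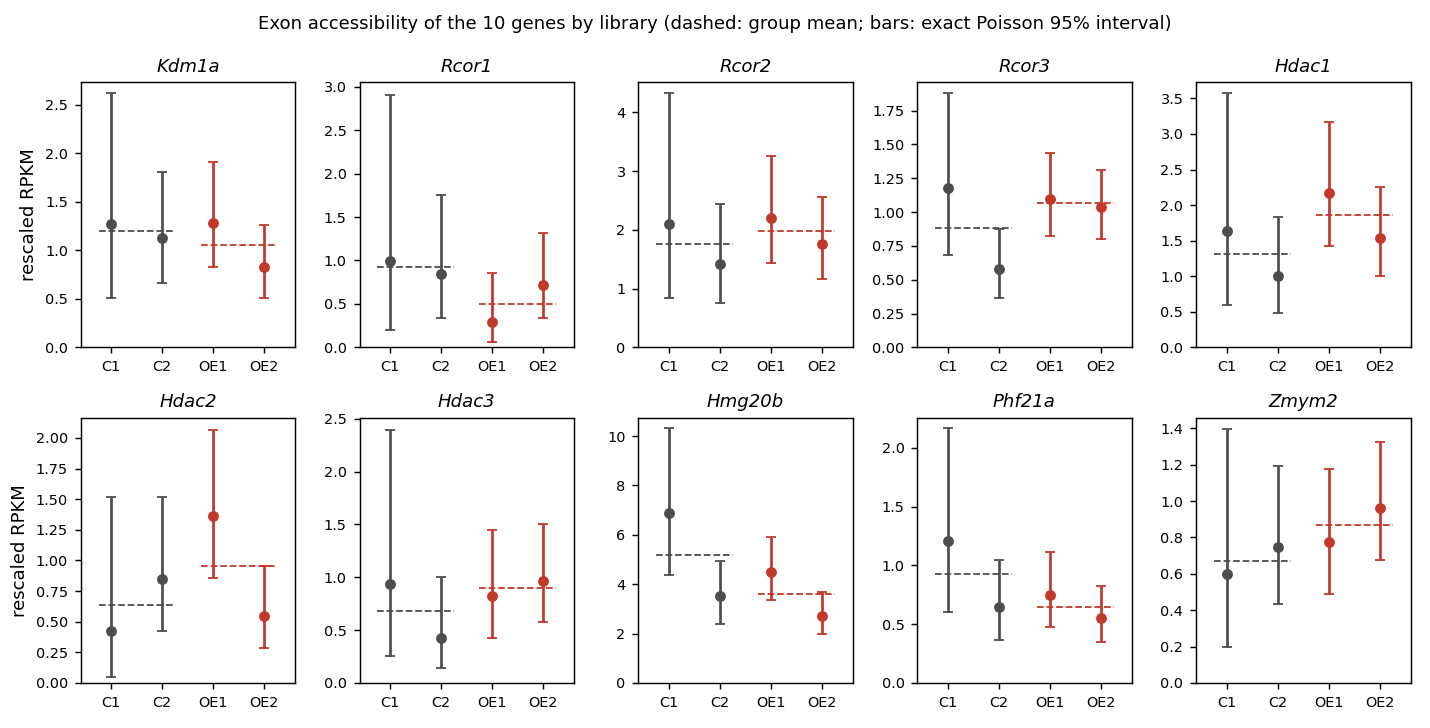
Each panel is a gene and the y axis, scaled separately in each panel, is rescaled RPKM in control 1 and 2 (C1, C2, grey) and Zscan4 OE 1 and 2 (OE1, OE2, red). Points are single libraries, bars their exact Poisson 95% intervals for counting error and dashed lines the group means. With the totals as placed here the groups separate in Rcor1 and Zmym2 alone, and there the bars still overlap.

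Kdm1a (chromosome 4, 136550533 to 136602787, GRCm38) had 7 and 17 reads in the controls against 24 and 21 in Zscan4 OE. This came to 1.27 RPKM in control 1, 1.13 in control 2, 1.29 in Zscan4 OE 1 and 0.828 in Zscan4 OE 2. Zscan4 OE 1 was the highest library and Zscan4 OE 2 the lowest, so the controls lay between them. The log2 difference was −0.20 (SE 0.486, 95% interval −1.49 to 1.10, limma adjusted p = 0.967), and it was 0.092 without Zscan4 OE 2. The interval leaves room for a change of either sign of up to about that size, which these reads could not resolve.

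The 3 CoREST scaffold genes did not share a direction. Rcor1, the founding CoREST protein (chromosome 12, 111039367 to 111115902), was at 0.995 and 0.848 RPKM in the controls against 0.293 and 0.718 in Zscan4 OE, from 3, 7, 3 and 10 reads. Both Zscan4 OE libraries were below both controls, with Zscan4 OE 1 furthest down on 3 reads and an exact Poisson 95% interval of 0.0604 to 0.856 RPKM. Its log2 difference of −0.85 (SE 0.641, 95% interval −2.55 to 0.86) was the largest of the 10 in size (limma adjusted p = 0.869). Without Zscan4 OE 1 it was −0.32 and without Zscan4 OE 2 it was −1.38.

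Rcor2, the family member best known from embryonic stem cells (chromosome 19, 7267394 to 7275225), was at 2.10 and 1.43 RPKM in the controls against 2.21 and 1.76 in Zscan4 OE. In both groups replicate 1 was the higher library, and the groups overlapped. The log2 difference was 0.18 (SE 0.456, 95% interval −1.04 to 1.39, limma adjusted p = 0.971), and −0.089 without control 2. Rcor3, the third scaffold and the gene with the most reads (chromosome 1, 192098546 to 192138074), had 17, 23, 54 and 69 reads. It was at 1.18 and 0.582 RPKM in the controls against 1.0994 and 1.03 in Zscan4 OE. Control 1 was the highest library and control 2 the lowest, so the spread lay among the controls. The log2 difference was 0.32 (SE 0.555, limma adjusted p = 0.934) and turned to −0.13 without control 2.

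With all 4 libraries the 3 deacetylase genes had positive log2 differences, except that Hdac2 was at −0.25 with quantile normalization, and none passed the test. When 1 library at a time was left out, Hdac2 and Hdac3 each turned negative in 1 case. Hdac1 (chromosome 4, 129516104 to 129542646) was at 1.64 and 0.9997 RPKM in the controls against 2.17 and 1.54 in Zscan4 OE, from 6, 10, 27 and 26 reads. Zscan4 OE 1 was the highest and control 2 the lowest library, while control 1 was above Zscan4 OE 2. The log2 difference of 0.48 (SE 0.496, 95% interval −0.84 to 1.80, limma adjusted p = 0.869) stayed positive when any 1 library was left out, from 0.15 without control 2 to 0.81 without control 1. A pseudogene, listed as Gm10093 and named Hdac1-ps in RefSeq (chromosome 17, 78491565 to 78493541), had 2 reads in each Zscan4 OE library and 0 in either control. Reads could be exchanged between the gene and such a copy, and whether they were was not tested.

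Hdac2, the close paralog of Hdac1 (chromosome 10, 36974297 to 37001889), was the most variable gene of the set between replicates. It was at 0.421 and 0.847 RPKM in the controls against 1.36 and 0.547 in Zscan4 OE, from 2, 11, 22 and 12 reads. The highest value was in Zscan4 OE 1 and the lowest in control 1, with the 2 others in between. Its log2 difference was 0.47 (SE 0.705, 95% interval −1.41 to 2.35, limma adjusted p = 0.913), and −0.12 without Zscan4 OE 1. Hdac3, the deacetylase of the NCoR and SMRT co-repressors (chromosome 18, 37936971 to 37955015), was at 0.936 and 0.428 RPKM in the controls against 0.827 and 0.963 in Zscan4 OE. Only control 2 stood lower, on 5 reads. The log2 difference of 0.42 (SE 0.601, limma adjusted p = 0.901) was −0.062 without it.

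Partner genes pointed both ways. Hmg20b (chromosome 10, 81346046 to 81350943) had 23, 32, 51 and 42 reads, or 6.88 and 3.50 RPKM in the controls against 4.49 and 2.72 in Zscan4 OE. Control 1 was the highest library and Zscan4 OE 2 the lowest, but control 2 was below Zscan4 OE 1. The log2 difference was −0.48 (SE 0.588, 95% interval −2.04 to 1.09, limma adjusted p = 0.878). It was −0.96 without control 2 and 6.8e-06, that is none, without control 1.

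Phf21a, which reads unmethylated lysine 4 of histone H3 (chromosome 2, 92183751 to 92364667), was at 1.21 and 0.644 RPKM in the controls against 0.745 and 0.548 in Zscan4 OE. Here too control 1 was the highest and Zscan4 OE 2 the lowest library. The log2 difference of −0.42 (SE 0.586, limma adjusted p = 0.9) was −0.01 without control 1. Zmym2, a zinc finger protein bound to LSD1 and CoREST (chromosome 14, 56886529 to 56962358), was at 0.599 and 0.745 RPKM in the controls against 0.776 and 0.961 in Zscan4 OE, from 5, 17, 22 and 37 reads. Both Zscan4 OE libraries were above both controls, though Zscan4 OE 1 exceeded control 2 by less than the counting intervals of either. The log2 difference was 0.33 (SE 0.517, 95% interval −1.05 to 1.70, limma adjusted p = 0.923), and it exceeded the larger of the 2 within-group gaps on the same scale, 0.276. It was the 1 gene of 10 where this held, and the share of all rows where it held was not counted. This and the separation of the groups rest on the totals as placed with the libraries. All 5 placements with more alike shares of reads in features give control 2 a smaller total, which raises its value. Zmym2 was not recomputed under them, and its separation may not hold there. Without 1 library in turn the log2 difference ran from 0.19 to 0.46.

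**Figure D4:**
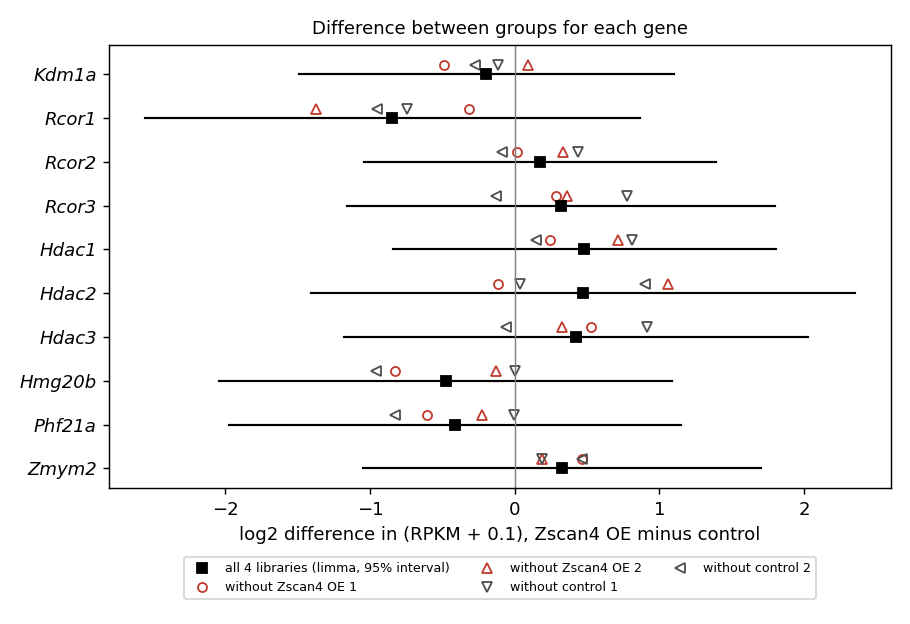
The x axis is the log2 difference in RPKM + 0.1 between Zscan4 OE and control, with 1 row per gene. Black squares with lines are the estimates from all 4 libraries with their 95% intervals (limma), all of which include 0, and open symbols are the estimates without 1 library, grey for a left-out control and red for a left-out Zscan4 OE library.

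Pooling the reads of each group did not separate the groups for any gene. In pooled reads the ratio of Zscan4 OE to control per library total ran from 0.606 for Rcor1 (exact 95% interval 0.245 to 1.54) to 1.61 for Hdac3 (0.746 to 3.83). The interval included 1 in all 10 genes, and the share of all rows where it did so was not counted. Rcor3 came closest to an interval without 1, at 1.43 (0.996 to 2.10) on 40 and 123 reads. These intervals, like the Poisson intervals of single libraries, cover counting error only and take reads as independent molecules. A lower value may come from fewer cells with the gene open or from less openness in each cell, which cannot be told apart in bulk libraries.

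Summed over the 10 genes, the reads made up nearly the same mean share of the libraries in both groups. They were 80.1 and 52.0 reads per 1000000 of the library total (RPM) in the controls, from 85 and 151 reads, and 72.9 and 58.4 RPM in Zscan4 OE, from 263 and 286 reads. Both Zscan4 OE libraries lay between the 2 controls. The group means were 66.0 ± 19.9 and 65.7 ± 10.3 RPM (SD, n = 2), a ratio of 0.994. The ratio was 1.26 without control 1 and 1.104 without Zscan4 OE 2, and 0.82 without control 2. A design of 2 against 2 libraries allows no exact permutation p below 0.333, so no such test could pass.

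By role the sums differed in sign. Kdm1a and the 3 Rcor genes summed to 32.0 and 20.7 RPM in the controls against 29.4 and 25.9 in Zscan4 OE, which overlapped. The 3 deacetylase genes had 11.3 and 8.95 RPM in the controls, on 12 and 26 reads, and 16.9 and 11.6 in Zscan4 OE, on 61 and 57 reads. Both Zscan4 OE values were above both controls, by a ratio of means of 1.41. The exact Poisson 95% interval of control 1, 5.84 to 19.7 RPM, held the value of every library. That of control 2, 5.85 to 13.1 RPM, did not hold Zscan4 OE 1. The interval of Zscan4 OE 1, 12.9 to 21.7 RPM, held neither control, while that of Zscan4 OE 2, 8.81 to 15.1 RPM, held both. The ratio of means was 1.15 without Zscan4 OE 1 and 1.67 without Zscan4 OE 2. The 3 partner genes had 36.7 and 22.4 RPM in the controls against 26.6 and 20.8 in Zscan4 OE, an overlap with a ratio of 0.802, and the ratio was 1.0597 without control 1. Replicate 1 carried the higher sum in both groups for each of these roles, as it did for the share of reads in features. Gene by gene, control 1 was above control 2 in 8 of 10 genes and Zscan4 OE 1 above Zscan4 OE 2 in 7 of 10. The part of this split in the results was not tested beyond scaling by feature reads, where the 10 genes had a ratio of 0.963 and the deacetylases 1.33.

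**Figure D5:**
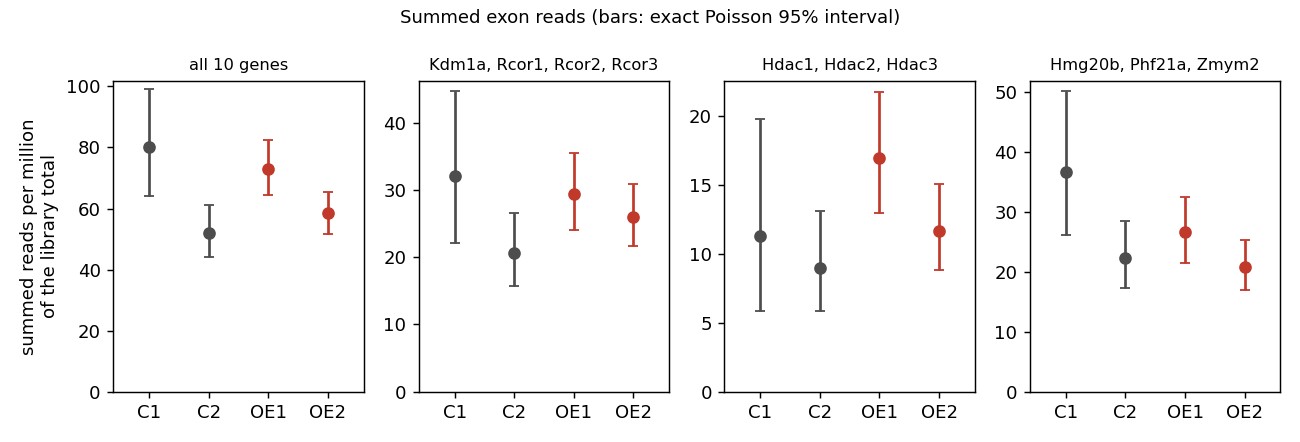
The y axis, scaled separately in each panel, gives summed RPM for all 10 genes and for the 3 roles, in control 1 and 2 (C1, C2, grey) and Zscan4 OE 1 and 2 (OE1, OE2, red). Bars are exact Poisson 95% intervals. The 2 red points stand above both grey points in the Hdac1, Hdac2 and Hdac3 panel alone. There both lie within the bar of C1, but OE1 lies above the bar of C2.

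The other genes of the same machinery gave no call either. Of 84 genes in 7 lists all were in the table and tested, 52 lay above and 32 below 0 in log2 difference, and 0 passed over all rows (limma). Their median was 0.16, below the 0.28 of all tested rows and near the 0.14 of the rows with 20 reads or more, of which 60.3% were positive. At an unadjusted p under 0.05 there was 1 gene of the 84, a smaller share than the 5.09% higher and 1.33% lower of all rows. It was Mta2 (chromosome 19), a subunit of the NuRD remodelling and deacetylase complex. It had 0.460 and 0.673 RPKM in the controls against 1.96 and 1.45 in Zscan4 OE, from 2, 8, 29 and 29 reads, with a log2 difference of 1.44 (SE 0.503, limma adjusted p = 0.717).

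Other partners of LSD1 and CoREST numbered 16, with 12 positive and 4 negative differences and a median of 0.17. The extremes by the test statistic were Gfi1b (chromosome 2), a blood-lineage repressor that recruits LSD1, with 2, 1, 10 and 11 reads in the 4 libraries and a log2 difference of 1.36 (SE 0.826), and Zmym3 (chromosome X), a relative of Zmym2, with 7, 34, 22 and 18 reads and −0.79 (SE 0.589). Their adjusted p was 0.869 each (limma). Zmym2 and Zmym3 thus lay on opposite sides of 0, neither beyond its interval.

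The complexes that share Hdac1 and Hdac2, Sin3 and NuRD, stood on no fixed side of the background. Both medians were below the 0.28 of all rows, that of NuRD was above the 0.14 of rows with 20 reads or more, and with quantile normalization both were above the −0.04 of all rows. The 15 genes of the Sin3 complex had 7 positive and 8 negative differences with a median of 0.00. Among them Rbbp4 (chromosome 4), a histone chaperone of several deacetylase complexes, was at 0.431 and 0.236 RPKM in the controls against 1.30 and 0.700 in Zscan4 OE, and Ing2 (chromosome 8), a histone reader, was lowest with −0.34 (SE 0.559). The 10 NuRD genes had 6 positive and 4 negative differences with a median of 0.17, and Cdk2ap1 (chromosome 5) was lowest at −0.45 (SE 0.57). For Hdac3, the 6 genes of the NCoR and SMRT complex had 2 positive and 4 negative differences with a median of −0.09. They ranged in statistic from Cops2 (chromosome 2) at 0.25 (SE 0.568) to Tbl1x (chromosome X) at −0.50 (SE 0.607).

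Of the 13 other deacetylase genes 7 were positive and 6 negative, with a median of 0.02. Sirt6 (chromosome 10), an NAD-dependent deacetylase, was at 1.01 and 0.989 RPKM in the controls against 2.19 and 1.76 in Zscan4 OE, and Hdac11 (chromosome 6) at 2.69 and 1.61 RPKM in the controls against 1.80 and 1.06. The groups did not overlap in Sirt6 and did overlap in Hdac11, and neither passed (limma adjusted p = 0.869 each). Lists that hold enzymes with the opposite activities, in 1 case together with demethylases, had medians above that of all rows, without a call. The list of 14 lysine 4 methyltransferase genes, which also holds other demethylases, had 10 positive and 4 negative differences (median 0.32), from Ash2l (chromosome 8) at 0.58 (SE 0.436) to Kdm5c (chromosome X) at −0.68 (SE 0.629). The 10 acetyltransferase genes had 8 positive and 2 negative differences (median 0.39). Kat2b (chromosome 17) was highest with 1, 6, 17 and 25 reads and 1.497 (SE 0.634), and Kat8 (chromosome 7) lowest at −0.33 (SE 0.689). Groups that did not overlap, which 19.6% of all tested rows had with Zscan4 OE higher and 10.1% with it lower, were found in every list. There were 6 higher and 0 lower among the 10 acetyltransferases, 4 and 0 among the 14 of the methylation list, and 5 and 3 among the 13 other deacetylases. The LSD1 and CoREST partners had 3 and 2 of 16, Sin3 4 and 0 of 15, NuRD 2 and 0 of 10, and NCoR and SMRT 0 and 2 of 6. With quantile normalization, where the median of all rows was −0.04, the medians were −0.11 for the LSD1 and CoREST partners, 0.05 for Sin3, 0.08 for NuRD, −0.23 for NCoR and SMRT, −0.27 for the other deacetylases, 0.10 for the methylation list and 0.30 for the acetyltransferases.

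By distance between centred log2 values over the 4 libraries, the genes of these lists most like Kdm1a were Setd1a, a lysine 4 methyltransferase, at 0.0951, Dpy30, a subunit of the same methyltransferase complexes, at 0.214, and Mta3 of NuRD at 0.287. The median distance over the 84 genes was 0.749. Setd1a was at 1.25, 1.12, 1.18 and 0.841 RPKM in the 4 libraries, from 9, 22, 29 and 28 reads. Among the set itself Rcor2 was nearest to Kdm1a, at 0.492, and Rcor1 farthest, at 1.33. With 4 libraries and few reads such distances describe these libraries only.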

How the data were processed

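Per the submitters' processing notes, the tools were Trimmomatic, Bowtie2 and featureCounts, on build mm10. Their versions, the read filters and the annotation are not stated in the sources at hand. The deposited values are RPKM per the labels. Each was a whole number of reads divided by feature length and by 1 of 8 library totals that rotate through the rows. Short RNA genes of known length (2539) gave the totals. Exactly 1 rotation gave whole reads in each of the 38361 rows with at least 2 values above 0. Recovered reads and lengths may share a lost common factor. Of 1192 short RNA genes with at least 2 values above 0, 84.3% had their known length recovered. Totals were placed with libraries in rotation order, at the start with the most alike shares of reads in features (ratio 1.36, next 4.17). Of 1680 placements in any order, 5 gave a lower ratio.

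The rescaled values, as log2(RPKM + 0.1), were tested with limma 3.58.1 (R 4.3.3; eBayes with a trend, two-sided). Rows needed a mean of 0.1 RPKM, and p-values were Benjamini-Hochberg adjusted at 0.05. The calculation was tested on simulated data with known changes. It gave nearly all of them their direction but called none at this filter. In such data the test thus has little power with this filter and 2 libraries a group. The spread between simulated replicates was assumed, not estimated from these libraries. Alternatives changed the pseudocount, filter, scaling, model, replicate block and libraries kept. Named beside the 10 genes were the highest and lowest statistic of each list, the 3 list genes nearest Kdm1a, and pseudogenes of the 10. Genes and lists were chosen with earlier results of these data known.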

Additional observations from a re-analysis of the deposited data

How the results depend on the processing

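No setting called any of the 10 genes. Of 140 values under alternatives 131 kept their direction, 9 turned, and the smallest adjusted p was 0.342 (limma). Beside leaving out a library, Rcor1 turned to 0.19 in the values as deposited, Rcor2 to −0.10 with libraries centred on their median, and Hdac2 to −0.25 with quantile normalization. These 3 scalings move rows in general: the median over all rows, 0.28, became 1.40, 0.0033 and −0.04 in that order, so relative to it Rcor1 and Rcor2 stayed below and Hdac2 went from above to below. Leaving out each library in turn gave −0.49 to 0.092 for Kdm1a, −0.089 to 0.44 for Rcor2, −0.13 to 0.77 for Rcor3, −0.12 to 1.06 for Hdac2, −0.062 to 0.91 for Hdac3 and −0.96 to 6.8e-06 for Hmg20b. The cause was not tested. The ratio of summed reads ran from 0.82 to 1.26 over the 10 genes, 0.863 to 1.34 over Kdm1a and the Rcor genes, and 0.646 to 1.06 over the partners. The 5 placements of totals out of rotation order were added after seeing the data. Under them the ratio over the 10 genes was 0.889 to 0.937 in 3 and 1.1502 and 1.1505 in the others. Single genes and roles were not recomputed under these placements, so whether their groups separate there was not tested. Scaling by feature reads was also added after seeing the data. Over all rows, limma called 4 higher and 1 lower with 20 reads or more, voom 0 and 1, and leaving out 1 library gave 0 to 4530 higher and 0 to 6 lower. Replicate numbers are shared by the groups, but the labels do not say that they pair libraries. Same-numbered libraries deviated together with r = 0.13 over 19012 rows. With the replicate block 0 rows were higher and 0 lower, and Kdm1a had an adjusted p of 0.949. Between 2 and 69 reads per gene and library limit every value.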
